A study of Homo sapiens with 3 samples.

Results

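The peaks described here lie at the long-arm tip of chromosome 9 in U2OS, a human osteosarcoma cell line, and were found by chromatin immunoprecipitation followed by sequencing (ChIP-seq) of Spindlin1 and of C11orf84. A peak belongs to this end when its summit lies on chromosome 9 at position 135000001 or beyond in the human genome build hg19, counting from 1. There are 6649 of them among 331107 peaks in all, 3180 of 153468 in the Spindlin1 list and 3469 of 177639 in the C11orf84 list. The study made 3 libraries: a Spindlin1 ChIP, a C11orf84 ChIP and an Input, all from untreated cells fixed with 1% formaldehyde for 10 min and then given 0.125 M glycine over 5 min. Each antibody was used in 1 library, so no difference here could be tested against replicates. Every interval below covers counting error only, with neighbouring peaks taken as independent. The tip and its windows were chosen by the background and the widths of their peaks, so those values are given as a description.

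Spindlin1 is a chromatin reader whose Tudor-like domains hold methylated residues of the histone H3 tail, the trimethylated lysine of active promoters among them. C11orf84, also known as SPINDOC, is a protein that binds Spindlin1. The series asked where each of them sits in the genome. This chromosome end is rich in genes and in G and C bases. Going outward it carries, among others, WDR5 (a subunit of histone H3 lysine methyltransferase complexes), RXRA (a nuclear receptor), COL5A1 (a fibrillar collagen chain), NOTCH1 (a cell-surface receptor of the Notch pathway), GRIN1 (a subunit of NMDA receptors), EHMT1 (a histone H3 lysine methyltransferase) and CACNA1B (a calcium channel subunit). In the gene order of RefSeq for GRCh38, 94 protein-coding genes lie farther out than WDR5, 62 farther out than NOTCH1 and 1 farther out than EHMT1. That table has other coordinates than hg19, so it was used for names and order alone and no peak was assigned to a gene.

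Each peak has 4 measures. Its width and position are deposited, its fold enrichment is the authors' ratio of the summit to a local background, and its summit depth (in fragments) and background were recovered from the deposited fold and p-value. Background is given relative to its lowest value, called the floor, which is the same everywhere in a list. From 2 times the floor upward it is called raised. In fragments the floor was 0.949 (Spindlin1) and 1.04 (C11orf84), and the outermost peaks ended at 141017803 and 141016221. The boundary at 135000001 marked no break. The first Spindlin1 peak inside it had 10 fragments at its summit and the last one outside had 11 (135005019 to 135005317 and 134989600 to 134989782), and for C11orf84 these were 13 and 14 (135000769 to 135001019 and 134989593 to 134989822).

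The end of the arm was not uniform, and its deepest part was shorter than 2 Mb. In 1 Mb windows taken outward from that boundary, the Spindlin1 list held 275, 666, 646, 614, 726 and 249 peaks, with 4 more past 141000000. The C11orf84 list held 308, 707, 717, 673, 675 and 383 peaks, with 6 more past 141000000. Median summit depth in the same 6 windows was 11, 11, 11, 12, 16 and 10 fragments for Spindlin1 and 12, 12, 12, 12, 17 and 10 for C11orf84. The fifth window, chr9:139000001-140000000, was the deep one in both lists, and its outer neighbour had the lowest median depth of the 6.

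In bins of 50 kb the depth changed within a few bins near both edges of this window. Toward the tip, the median Spindlin1 depth was 11 fragments at 138800001 to 138850000, 13 in the next bin and 16 in the bin after that, and for C11orf84 it was 11.5, 14 and 17. At the outer edge the Spindlin1 median was 15 fragments at 139800001 to 139850000 and 10 in the next bin, and the C11orf84 median was 19 and then 10. The last summit of at least 20 fragments before the outer edge stood at 139842695 in both lists, with 26 fragments for Spindlin1 and 25 for C11orf84. The tip was therefore divided into an inner stretch (135000001 to 138900000), a deep stretch (138900001 to 139850000) and an outer stretch (139850001 to 141017803). These edges were chosen after the depths in the 50 kb bins were seen.

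**Figure D1:**
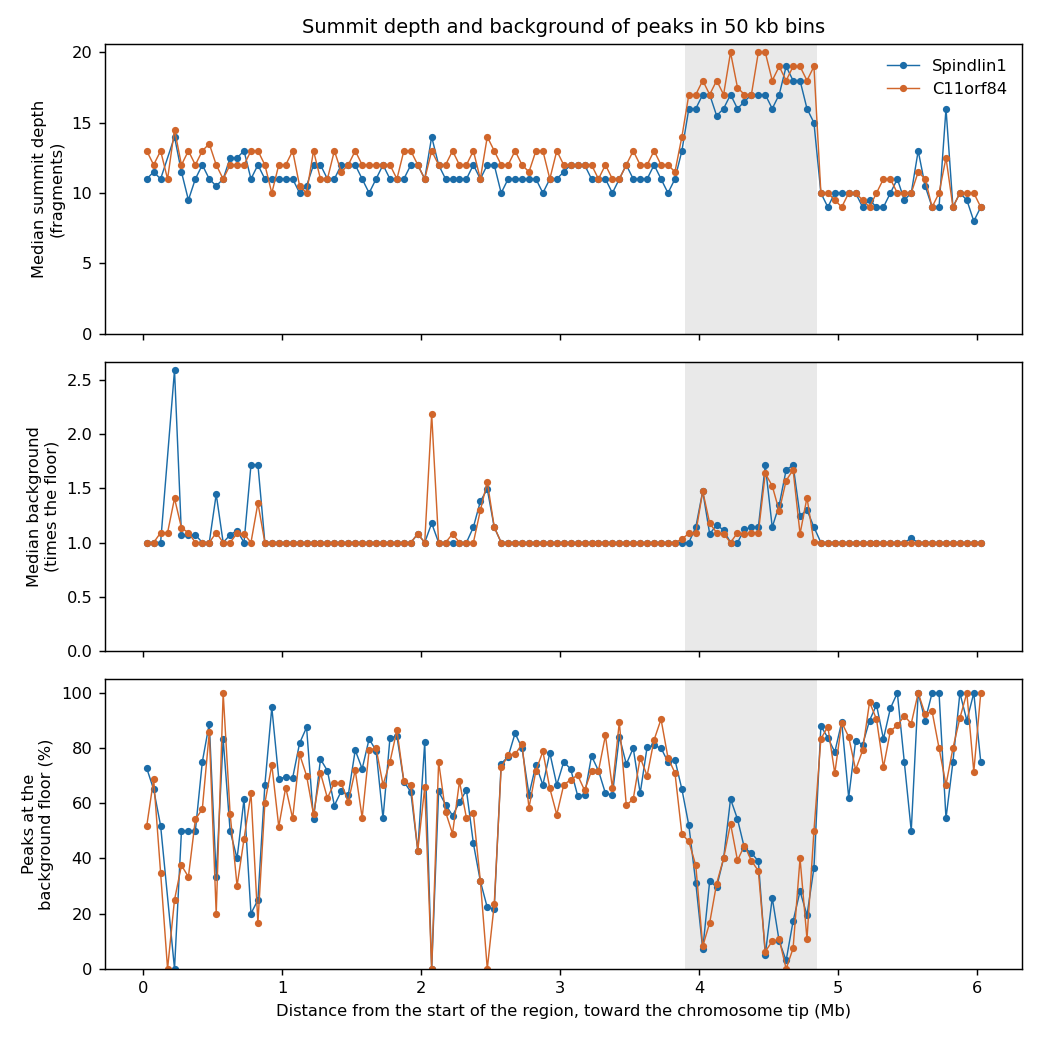
Each point is a 50 kb bin of the Spindlin1 or C11orf84 list, placed by its distance from the start of the region, with median summit depth in fragments (top), median background relative to the floor (middle) and the percentage of peaks at the floor (bottom). The shaded deep stretch has median depths of 15 to 19 fragments for Spindlin1 and 17 to 20 for C11orf84 in its 19 bins, with a step at both edges.

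Median depth in the deep stretch was higher in every bin than in nearly all bins around it. Its 19 bins had medians of 15 to 19 fragments for Spindlin1 and 17 to 20 for C11orf84. The bins of the inner stretch had 9.5 to 14 fragments for Spindlin1 and 10 to 14.5 for C11orf84. The groups of bins did not overlap, but the edges were drawn from these same medians, so this is a description. The 23 full bins of the outer stretch had 8 to 16 and 9 to 12.5 fragments, and 1 Spindlin1 bin among them reached 15.

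Taken over peaks, Spindlin1 had a median summit depth of 11 fragments in the inner stretch (2131 peaks, interquartile range 10 to 13), 17 in the deep stretch (720 peaks, 14 to 20) and 10 in the outer stretch (329 peaks, 9 to 11). C11orf84 had 12 fragments (2339 peaks, 10 to 14), 18 (646 peaks, 15 to 22) and 10 (484 peaks, 9 to 11). The deep stretch stood at 1.55 times the inner stretch for Spindlin1 and at 1.5 times for C11orf84, while the outer stretch stood at 0.909 and 0.833 times. These depths chose the edges, so the ratios are a description.

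Most deep summits were in the deep stretch, whose edges were chosen by depth. Spindlin1 peaks of at least 20 fragments numbered 8 in the inner stretch (0.375%), 186 in the deep stretch (25.8%, 95% interval 22.7 to 29.2) and 1 in the outer stretch (0.304%), against 4.43% of all Spindlin1 peaks. For C11orf84 there were 40 (1.71%), 259 (40.1%, 36.3 to 44.0) and 3 (0.62%), against 6.13% of all its peaks. Outside the deep stretch both lists were thus below the share in their whole list.

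Fewer peaks of the deep stretch stood at the floor. Median background was at the floor in the inner stretch, 1.18 times the floor in the deep stretch and at the floor in the outer stretch, in both lists. Peaks at the floor made up 68.3% of Spindlin1 peaks in the inner stretch, 29.2% (25.9 to 32.6) in the deep stretch and 83.6% in the outer stretch, against 48.2% in the whole list. For C11orf84 these shares were 65.5%, 26.8% (23.4 to 30.4) and 84.3%, against 49.3%. Raised background was met by 55, 112 and 4 Spindlin1 peaks (2.58%, 15.6% and 1.22%, against 9.07% in the whole list) and by 72, 106 and 4 C11orf84 peaks (3.08%, 16.4% and 0.826%, against 9.19%).

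This background can be read as whole reads in windows of a set length, taken here as reads of the Input library. In windows of 10 kb the floor equals 102 such reads for both lists. In the deep stretch 96 Spindlin1 peaks (13.3%) took their background from a 10 kb window, with a median of 127.5 reads and a highest value of 198. So did 83 C11orf84 peaks (12.8%), with a median of 126 and a highest value of 193. These shares were close to the 11.7% and 10.9% of the whole lists, whose highest values were 898 and 1889 reads. In the inner stretch 37 and 40 peaks (1.74% and 1.71%) took theirs from such a window. In the outer stretch 0 of 329 Spindlin1 peaks and 0 of 484 C11orf84 peaks did. Counts below 102 reads per 10 kb are hidden by the floor, so only an excess can be seen. The floor came to the same number of reads in both lists. If both were called against the same Input library, their backgrounds are not independent measurements.

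Summits in the deep stretch were also deeper where the background was at the floor. Among peaks at the floor, Spindlin1 had a median of 11 fragments in the inner stretch (1455 peaks), 16 in the deep stretch (210 peaks) and 10 in the outer stretch (275 peaks). For C11orf84 it was 12 (1533 peaks), 17 (173 peaks) and 10 (408 peaks). Their median width was 260, 458.5 and 223 bp for Spindlin1 and 313, 509 and 249.5 bp for C11orf84. The difference in depth and width was about as large in these floor peaks as in all peaks. The edges were chosen by depth, so this is a description. Backgrounds below the floor are hidden, so floor peaks may still differ in background.

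**Figure D2:**
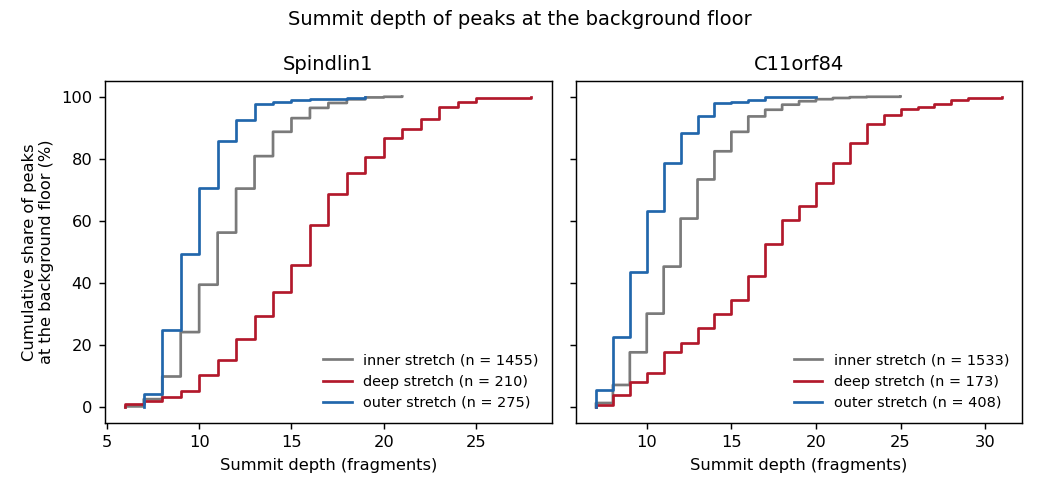
Cumulative share of peaks at the background floor (vertical axis, percent) up to a given summit depth (horizontal axis, fragments), for the inner, deep and outer stretch, with Spindlin1 on the left and C11orf84 on the right. The curve of the deep stretch lies far to the right, with medians of 16 and 17 fragments, and that of the outer stretch lies farthest to the left, with a median of 10 in both lists.

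Background was also above the floor in some bins of the inner part, among them 3 neighbouring ones. In these bins from 137400001 to 137550000 the Spindlin1 background had medians of 1.38, 1.49 and 1.14 times the floor, and the C11orf84 background had medians of 1.30, 1.56 and 1.14 times. Median depth in these 3 bins was 11, 12 and 12 fragments for Spindlin1 and 11, 14 and 13 for C11orf84. The bins held few peaks, 22, 9 and 23 for Spindlin1 and 25, 10 and 30 for C11orf84. These depths were within the range of the other inner bins and below those of the deep stretch. The bin at 135200001 to 135250000 had medians of 2.59 (Spindlin1, 2 peaks) and 1.41 times (C11orf84, 4 peaks). Its depths of 14 and 14.5 fragments were at the top of the inner range. The bins at 135750001 to 135800000 and 135800001 to 135850000 had Spindlin1 medians of 1.71 and 1.72 times, with 11 and 12 fragments on 5 and 8 peaks. Their C11orf84 medians were 1.00 and 1.36 times, with 13 fragments in each. Inside the deep stretch, the bin at 139000001 to 139050000 had a median Spindlin1 background of 1.47 times the floor and a median depth of 17 fragments. The bin at 139200001 to 139250000 had its median at the floor and the same depth of 17 fragments. For C11orf84 these bins had 1.47 times the floor with 18 fragments and the floor with 20. The part of the background in the depth of the whole deep stretch was not tested.

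Setting the distal windows, chr9:139000001-141000000, against the proximal windows, chr9:136000001-138000000, mixed the deep and the outer stretch. There were 487.5 Spindlin1 peaks per Mb in the distal windows, against 656 in the proximal windows, a ratio of 0.743. For C11orf84 there were 529 per Mb in the distal and 712 in the proximal windows, again a ratio of 0.743. Among peaks with a −log10 q of at least 10, which 11.8% of all Spindlin1 and 15.7% of all C11orf84 peaks reached, the ratio was 3.07 for Spindlin1 and 1.64 for C11orf84, so its direction depended on the strength of the peaks counted. Median depth was 14 fragments in the distal and 11 in the proximal windows for Spindlin1, and 13 and 12 for C11orf84. Restricted to peaks at the floor, the difference, distal minus proximal, was 0 for Spindlin1 and −1 for C11orf84. Of the 455 Spindlin1 and 548 C11orf84 floor peaks of the distal windows, 272 and 402 lay beyond 139850000. Background at the floor was found in 46.7% of Spindlin1 peaks of the distal and 67.8% of the proximal windows, and in 51.8% and 65.7% of C11orf84 peaks. The higher background of the distal windows therefore lay in their inner part, since their part beyond 139850000 was at the floor more often (83.7% and 84.1%) than the proximal windows. Peaks of at least 2 kb numbered 30 in the distal and 0 in the proximal windows for Spindlin1, and 57 and 1 for C11orf84.

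Peaks of both proteins were widest in the deep stretch. Median width was 262 bp in the inner stretch, 449 bp in the deep stretch and 224 bp in the outer stretch for Spindlin1, and 312, 497.5 and 250 bp for C11orf84. Spindlin1 peaks covered 18.2% of the inner stretch, 52.4% of the deep stretch and 8.03% of the outer stretch, and C11orf84 peaks covered 24.0%, 57.3% and 13.1%. Among windows of 1 Mb with at least 100 peaks, 0 of 473 had a larger median width than chr9:139000001-140000000 in the Spindlin1 list (409 bp) and 2 of 539 did in the C11orf84 list (437 bp). In median depth 9 and 12 of those windows were higher. The window was part of a choice made by peak width, so its rank by width is a description.

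Peaks of at least 2 kb numbered 33 in the Spindlin1 list of this arm end (1.04%, against 0.176% in the whole list) and 66 in the C11orf84 list (1.9%, against 0.311%). The deep stretch held 30 of the Spindlin1 ones (4.17% of its peaks) and 59 of the C11orf84 ones (9.13%). The inner stretch held 2 and 7. In the outer stretch there was 1 for Spindlin1 and 0 of 484 for C11orf84, which allows a share of up to 0.62%. Every one of these wide peaks overlapped the other list, but a wide interval meets another peak more easily, and the part of width was not tested. At the background floor stood 10 and 16 of them, against 91 of 270 and 191 of 553 wide peaks in the whole lists. On a raised background stood 6 and 15. Overlap and raised background were not counted for the wide peaks of the whole lists. The wide peaks were also deep, with medians of 22 (Spindlin1) and 22.5 fragments (C11orf84).

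**Figure D3:**
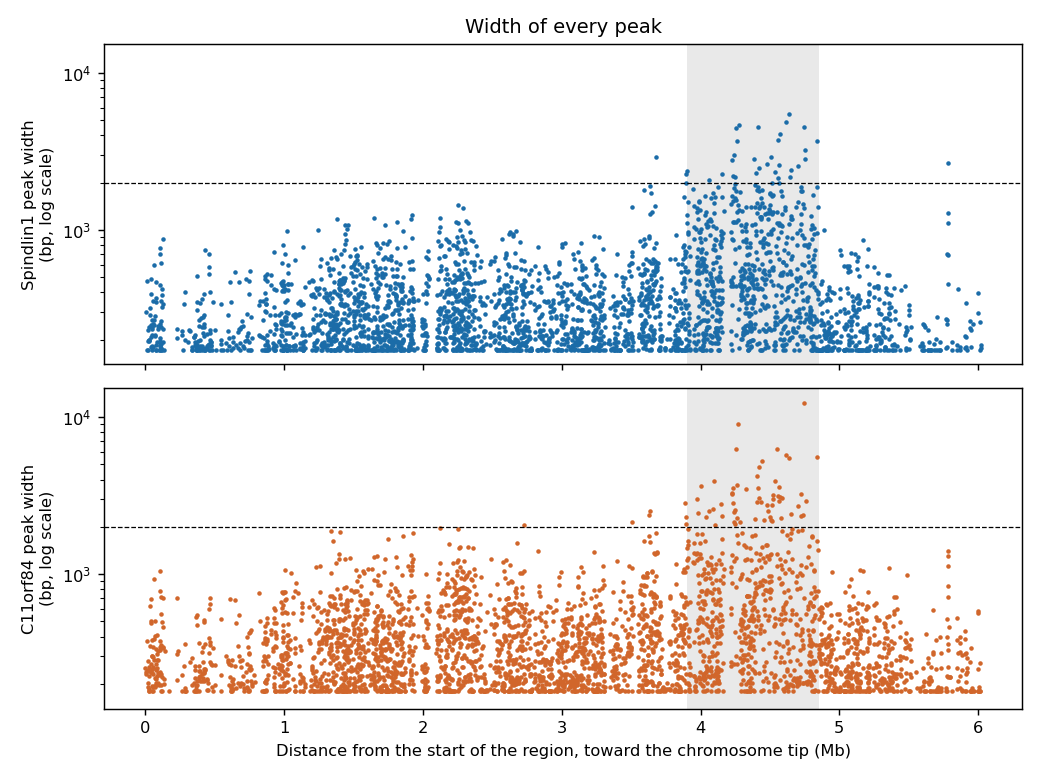
Each dot is a peak, with its width in bp on a log scale against its distance from the start of the region, Spindlin1 above and C11orf84 below, and the dashed line marks 2 kb. Nearly all of the 33 Spindlin1 and 66 C11orf84 peaks of at least 2 kb lie in the shaded deep stretch.

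The widest peak of either list at this arm end was a C11orf84 peak at 139742393 to 139754713, 12321 bp wide, with 32 fragments at its summit and a background of 4.91 times the floor. It overlapped 7 Spindlin1 peaks. From its inner to its outer side these had 23, 26, 21, 22, 25, 24 and 17 fragments, and the background under them was 3.63, 3.44, 2.55, 1.96, 1.71, 1.00 and 1.00 times the floor. The highest depth of the 7, 26 fragments, stood at 3.44 times the floor and the lowest, 17 fragments, at the floor. The other 5 had 21 to 25 fragments on backgrounds from 3.63 times the floor down to the floor. Whether depth followed background here was not tested. The widest of the 7 ran from 139746310 to 139750813.

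**Figure D4:**
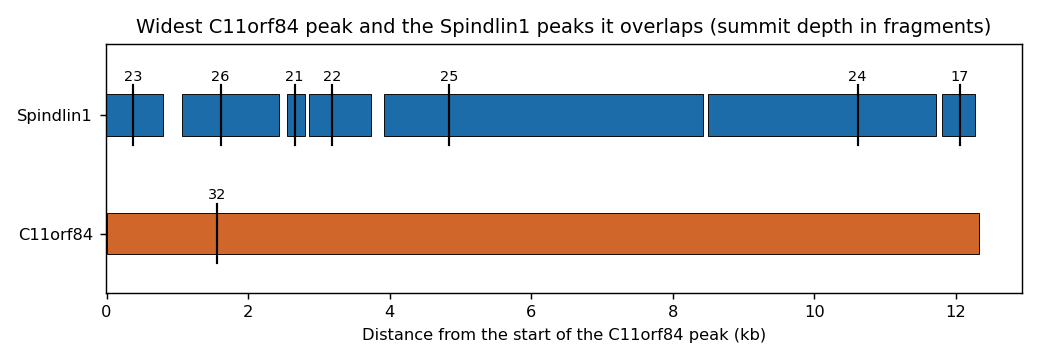
The widest C11orf84 peak (below) and the 7 Spindlin1 peaks it overlaps (above), drawn to scale by distance in kb from the start of the C11orf84 peak, with a black line and the depth in fragments at each summit. The Spindlin1 peaks tile nearly the whole 12321 bp, and 6 of them have 21 to 26 fragments.

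The 5 widest C11orf84 peaks (5746 to 12321 bp) overlapped 7, 6, 4, 4 and 2 Spindlin1 peaks. The 5 widest Spindlin1 peaks (4504 to 5467 bp) overlapped 1, 1, 1, 3 and 1 C11orf84 peaks. A longer interval can span more peaks, and the part of width in these numbers was not tested. A C11orf84 peak of 9000 bp at 139269373 to 139278372 (22 fragments, fold 6.01, background 2.73 times the floor) overlapped 6 Spindlin1 peaks, the largest of them 4673 bp. One of 6303 bp at 139250012 to 139256314 overlapped 4 Spindlin1 peaks, and it stood near the floor with 21 fragments and a fold of 10.3. The peak at 139550737 to 139557024 (6288 bp, 25 fragments) overlapped 4, among them a Spindlin1 peak of 3728 bp with 24 fragments. The widest Spindlin1 peak, at 139633866 to 139639332 (5467 bp, 24 fragments, fold 5.88, background 3.42 times the floor), had a single C11orf84 counterpart of nearly the same bounds, 139633865 to 139639365, with 25 fragments and a fold of 5.92.

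Over all peaks, C11orf84 intervals that overlapped at least 2 Spindlin1 peaks made up 10.7% of the inner stretch (250 peaks), 22% of the deep stretch (142) and 3.51% of the outer stretch (17), against 5.56% of the whole list. Spindlin1 intervals that overlapped at least 2 C11orf84 peaks made up 8.21% (175), 11% (79) and 5.78% (19), against 4.19%. C11orf84 peaks had the larger median width in each stretch, and the part of width in these shares was not tested.

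The leading peaks by fold were all in the deep stretch, and each overlapped a peak of the other list. For Spindlin1 the highest fold was 14.9 at 139165642 to 139166958, with 28 fragments at the floor, and the C11orf84 peak there had a fold of 9.33 with 18 fragments. Next came 139642100 to 139644254 with a Spindlin1 fold of 14.3 and 29 fragments, beside C11orf84 peaks of 21 to 25 fragments. The 3 that followed had folds of 13.5, 13.4 and 13.3 at 25 to 27 fragments. The 3 Spindlin1 peaks of highest −log10 q were the first 3 of these.

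For C11orf84 the highest fold was 15.7 at 139365970 to 139366622, with 31 fragments at the floor, and the larger Spindlin1 overlap there was with a peak of 23 fragments and a fold of 12.3. The peak at 139803924 to 139805652 followed with a fold of 14.7 and 29 fragments, over Spindlin1 peaks of 19 and 27 fragments. A region at 139051564 to 139052710 was nearly identical in its bounds in the other list (139051542 to 139052684), with 28 C11orf84 fragments and 23 Spindlin1 fragments and summits 6 bp apart. All 5 C11orf84 peaks of highest fold were at the floor, and 2 of the 5 Spindlin1 ones were. Folds of the 2 lists are each relative to their own list.

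By overlap of at least 1 bp, the lists coincided most in the deep stretch and least in the outer stretch. Of the Spindlin1 peaks, 84.6% of the inner stretch (83.0 to 86.1), 94.3% of the deep stretch (92.4 to 95.9) and 62.0% of the outer stretch (56.5 to 67.3) overlapped a C11orf84 peak, against 69.7% in the whole list. Of the C11orf84 peaks, 72.8% (71.0 to 74.6), 87.9% (85.2 to 90.3) and 42.8% (38.3 to 47.3) overlapped a Spindlin1 peak, against 57.6%. The intervals of the 3 stretches did not overlap in either list, but they take neighbouring peaks as independent. Among floor peaks of the whole lists, overlap was 56.4% (Spindlin1) and 37.8% (C11orf84) at 7 to 9 fragments. At 17 or more it was 93.4% and 87.2%. The edges were chosen by depth, so the order of the stretches is a description. The outer stretch lay below the whole list and the other stretches above it. In bases, 93.0% of the Spindlin1 territory of the deep stretch and 50.2% of that of the outer stretch was common to both lists, and for C11orf84 these were 85.1% and 30.7%. Summits within 200 bp of each other gave another order for Spindlin1, with 60.8% of the inner stretch, 51.0% of the deep stretch and 52.6% of the outer stretch, and for C11orf84 the shares were 55.2%, 57.4% and 34.9%. With at least 50% of both intervals in common, the deep stretch was highest again, with 48.6%, 56.9% and 32.5% for Spindlin1 and 44.2%, 63.5% and 22.1% for C11orf84.

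**Figure D5:**
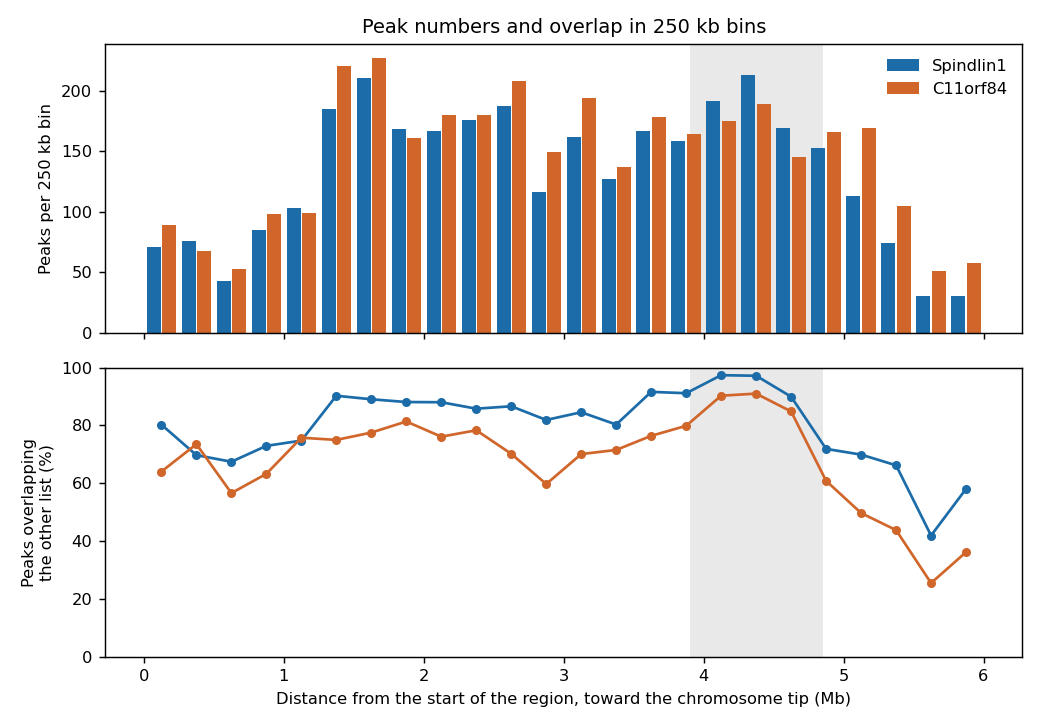
Number of peaks (top, bars) and percentage of peaks that overlap the other list (bottom, points) in bins of 250 kb, by distance from the start of the region, for Spindlin1 and C11orf84, with the deep stretch shaded. Overlap is highest in 2 adjoining bins inside the deep stretch, at 97.4% and 97.2% for Spindlin1 and 90.3% and 91.0% for C11orf84, and is lower beyond it, where the bars shorten as well.

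Among floor peaks of 7 to 9, 10 to 12 and 13 to 16 fragments, overlap was lower in the outer than in the inner stretch in each class. At 10 to 12 fragments, 84.2% of Spindlin1 peaks of the inner stretch (566 of 672), 80.0% of the deep stretch (28 of 35) and 67.8% of the outer stretch (80 of 118) overlapped C11orf84, against 67.6% in the whole list. For C11orf84 at 10 to 12 fragments the shares were 69.8% (461 of 660), 68.2% (15 of 22) and 48.4% (88 of 182), against 49.7%. At this depth the inner and deep stretches could not be told apart within their intervals, which for the deep stretch ran from 63.1% to 91.6% and from 45.1% to 86.1%. At 17 fragments or more the deep stretch had 87 of 87 Spindlin1 peaks and 99 of 100 C11orf84 peaks shared, against 46 of 53 and 81 of 98 in the inner stretch and 93.4% and 87.2% in the whole lists. Peaks stood closer together in the inner and deep stretches, with 546 and 758 Spindlin1 peaks per Mb, than in the outer stretch, with 282, and for C11orf84 these were 600, 680 and 414. The parts of width and of this crowding in the overlap were not tested.

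Among stronger peaks the distal windows had the higher overlap. With both lists limited to a −log10 q of 10 or more, 87.7% of 341 Spindlin1 peaks in the distal windows still overlapped, against 35.1% of 111 in the proximal windows. For C11orf84 these were 73.2% of 365 and 17% of 223. Without that limit the shares were 83.5% in the distal and 86.4% in the proximal windows for Spindlin1 and 67.9% and 74.4% for C11orf84, in the opposite order. The limit kept 341 of 975 Spindlin1 and 365 of 1058 C11orf84 peaks in the distal windows, against 111 of 1312 and 223 of 1424 in the proximal windows. Overlap under this limit was not computed for the whole lists. Whether the distal shares are high or the proximal shares low for such peaks is therefore unknown.

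Where summits of both lists lay within 200 bp of each other, depths could be set side by side. There were 1288 such pairs in the inner stretch, 367 in the deep stretch and 168 in the outer stretch. The median depth of the paired peaks was 11 fragments for Spindlin1 and 12 for C11orf84 in the inner stretch, 16 and 18 in the deep stretch, and 10 and 10 in the outer stretch. Across pairs, the Pearson correlation of depth was 0.273 in the inner stretch, 0.588 in the deep stretch and 0.562 in the outer stretch, where the Spearman correlation was 0.242. Pairs share their place on the chromosome and its background, so these are descriptions, and sites called in 1 list alone are left out of them.

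The balance of the lists also changed along the arm. There were 0.911 Spindlin1 peaks for each C11orf84 peak in the inner stretch, 1.11 in the deep stretch and 0.68 in the outer stretch, against 0.864 in the whole lists. Spindlin1 thus made up 47.7% of the peaks of both lists in the inner stretch (46.2 to 49.1), 52.7% in the deep stretch (50 to 55.4) and 40.5% in the outer stretch (37.1 to 43.9). In covered bases the ratio was 0.761, 0.914 and 0.613, below 1 in each stretch. Among peaks with a −log10 q of at least 10 the ratio of numbers was 0.533, 0.943 and 0.692, against 0.648 in the whole lists. The deep stretch was highest by each of these ratios, but it had more Spindlin1 than C11orf84 peaks only when weak peaks were counted, and the outer stretch was lowest only by the number of all peaks and by covered bases.

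Beyond 139850000 the arm end was nearly bare of deep peaks, apart from a single cluster. After the last deep summit at 139842695, 334 Spindlin1 and 487 C11orf84 peaks followed out to the tip, and 1 and 3 of them reached 20 fragments. All 4 belonged to a run of peaks at 140766844 to 140787519, in which no gap exceeded 5 kb. The run held 11 Spindlin1 peaks of 8 to 22 fragments and 16 C11orf84 peaks of 7 to 24 fragments, of which 8 and 11 overlapped the other list. Its leading Spindlin1 peak, at 140782079 to 140784752, was 2674 bp wide with 22 fragments and a fold of 11 and overlapped 4 C11orf84 peaks. The deepest C11orf84 peak, at 140782576 to 140783420, had 24 fragments and a fold of 11.7. This run was singled out after its values were seen. The 1 outer bin with a Spindlin1 median of 16 fragments overlaps it.

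Few peaks of this arm end stood far from the other list. No C11orf84 peak lay within 5 kb of 9 Spindlin1 peaks (0.283%, against 8.36% in the whole list), and no Spindlin1 peak lay within 5 kb of 39 C11orf84 peaks (1.12%, against 10.9%). Peaks were dense at this arm end, with 528 Spindlin1 and 576 C11orf84 peaks per Mb. A denser list leaves fewer places over 5 kb from it, and the part of density in these shares was not tested. The deep stretch had 0 of 720 and 0 of 646 peaks this far from the other list, which allows shares of up to 0.417% and 0.464%. The outer stretch had 2 and 26 of them. The C11orf84 peak of highest fold among them, at 140550938 to 140551177, had 16 fragments at the floor and a fold of 8.35, with the nearest Spindlin1 peak 31674 bp away. The leading Spindlin1 ones, at 140582852 to 140583034 and 140592967 to 140593155, both had 13 fragments and a fold of 7.18. A missing peak is the absence of a call at this depth and no measure of absence of the protein.

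Set beside other long arm ends of the same length (6.02 Mb from the outermost peak), the end of chromosome 9 had the largest range of depth. Medians of 250 kb bins with at least 20 peaks ran from 9 to 18 fragments on chromosome 9, 13 to 20 on chromosome 8, 12 to 13 on chromosome 17 and 9 to 15 on chromosome 20 for Spindlin1. For C11orf84 they ran from 10 to 19, 14 to 22, 12 to 14 and 10 to 16.5 fragments. The end of chromosome 9 was more often at the floor than these, with 61.0% of Spindlin1 peaks against 14.8% on chromosome 8, 51.6% on chromosome 17 and 48.9% on chromosome 20. Wide peaks of at least 2 kb were 1.04% of its Spindlin1 peaks, against 3.72%, 0.245% and 1.18%, and 1.9% of its C11orf84 peaks, against 5.81%, 0.922% and 2.10%. Overlap with C11orf84 was 84.4% (83.1 to 85.7) of its Spindlin1 peaks, against 90.2%, 87.1% and 85.7%. With 1 library per antibody these differences have no test.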

How the data were processed

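Per the submitters' processing notes, Bowtie 1.2.2 and hg19 were used. Caller, threshold and control were not given in the sources used here. A deposited list belongs to 1 sample, and the Input library's own file was not used here. The authors' fold is a ratio of summit to background, and the deposited lists give a −log10 p-value, a −log10 q-value and a score, which holds 10 × −log10 q rounded down for 100% of peaks. Start, end and summit offset were read from the deposited lists and are printed counting from 1.

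Summit depth k and background λ, both in fragments, were solved from fold = (k + 1)/(λ + 1) and from the Poisson tail above k that gives the p-value. A whole k met both values of each peak, with a largest error of 0.000174 (Spindlin1) and 0.000148 (C11orf84) in −log10 p. A peak was at the floor within 0.1% of the lowest background. That background comes from reads of the Input library is an inference. Total read numbers are unknown. On simulated data, depth was recovered exactly for 100% of 17965 peaks and overlap for 100% of 10000 intervals. The simulated folds and p-values were made with the same formulas. This checks the calculation only, and not whether the authors' values follow those formulas.

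Chromosomes 1 to 22 and X made up the whole lists, without the 90 and 82 peaks of chromosome Y. A peak was shared when at least 1 bp overlapped the other list. Intervals on shares are exact Clopper-Pearson 95% intervals. No member was filtered out. Peaks named in the text are, in each list, the 5 of highest fold, the 5 widest, the 3 of highest −log10 q, the 3 of highest fold over 5 kb from the other list and the widest of each 1 Mb window, ties by −log10 q, from which the text takes the leading ones. The arm end, its windows and these rules were chosen with earlier results of these data known, and the edges of the deep stretch after its depths were seen. Tools were matplotlib 3.10.9, pandas 2.3.3, SciPy 1.17.1, NumPy 2.4.6 and Python 3.11.15.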

Additional observations from a re-analysis of the deposited data

How the results depend on the processing

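The contrast of the distal with the proximal windows and all overlap shares depended on the processing. Of 80 alternative values for 26 results, 18 stayed within the counting interval of the value reported, 57 moved out of it and 5 turned their direction. The cause was not tested. The single-window comparison (chr9:139000001-140000000 over chr9:137000001-138000000) leaves out most of the shallow outer stretch. Asking for at least 50% of both intervals can only lower a share of overlap. Summits at most 200 bp apart is a different rule, which did not require the intervals to overlap. No paired analysis was possible because each antibody has 1 library, and leaving out a replicate was not possible for the same reason. With at least 50% of both intervals shared, the overlap of Spindlin1 and C11orf84 peaks was 48.3% and 44.6% in the distal windows, 47.3% and 43.6% in the proximal windows and 48.8% and 44.7% over the whole tip. With summits at most 200 bp apart it was 51.6% and 47.5%, 59.8% and 54.9%, and 57.7% and 52.8%. Among peaks of −log10 q 10 or more in each list it was 87.7% and 73.2%, 35.1% and 17%, and 68.3% and 46.0%. The ratio of peaks per Mb, 0.743 in both lists, was 3.07 for Spindlin1 and 1.64 for C11orf84 at a −log10 q of 10 or more, 1.12 and 0.941 for single windows, and 0.512 and 0.586 at the floor. The share of peaks of at least 2 kb in the distal windows, 3.08% and 5.39%, was 7.33% and 15.1% at a −log10 q of 10 or more, 1.76% and 2.37% at the floor, and 14.4% and 13.9% with 1 kb as the limit. The difference in median depth, 3 and 1 fragments, was 5 and 5 for single windows, 0 and −1 at the floor, and 5 for C11orf84 at a −log10 q of 10 or more. The ratio of median widths, 1.25 and 1.04, was 1.76 and 1.51 at a −log10 q of 10 or more, 1.01 and 0.891 at the floor, and 1.48 and 1.36 for single windows. The share at the floor was 35.8% and 31.5% in the distal and 84.7% and 76.2% in the proximal windows for peaks of −log10 q 10 or more, and 34.0% and 33.2% in the distal and 64.2% and 62.3% in the proximal single window. For the deep stretch, alternatives were chosen after seeing the data. Edges of 139000001 and 139800000 moved none of 8 values out of their intervals. That window lies inside the deep stretch and holds 609 of its 720 Spindlin1 and 546 of its 646 C11orf84 peaks. It could therefore hardly move these values, and wider or shifted edges were not tried. A limit to floor peaks moved 1 of 6 values, the median C11orf84 depth, to 17 fragments. Peaks of −log10 q 10 or more had a median depth of 19 and 21 fragments and a median width of 672 and 749 bp, with 36.4% and 31.4% at the floor and 87.6% and 73.2% overlapping. Overlap was 56.9% and 63.5% with at least 50% of both intervals and 51.0% and 57.4% by summits within 200 bp.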
